A study of Mus musculus with 26 samples.

Results

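The experiment described here asked whether the response of MC38/gp100 tumour cells to the PRMT5 inhibitor GSK3326595 depended on Mtap genotype. It used 12 of the 26 RNA-seq libraries of the series, in 4 groups of 3. The groups were Mtap knockout (KO) cells with GSK3326595, KO cells with DMSO, wild-type (WT) cells with GSK3326595 and WT cells with DMSO. GSK3326595 was given at 0.5 uM and cells of both lines were treated for 5 days. Every gene received an interaction value, the log2 fold change with GSK3326595 in KO cells minus that in WT cells, so a positive value means that the change was more upward, or less downward, in KO cells. A gene was called where the adjusted p of the interaction was below 0.05 (edgeR quasi-likelihood test, Benjamini-Hochberg adjustment). Of 14835 genes tested, 6264 were called.

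MC38 is a mouse colon adenocarcinoma line, and all 12 libraries came from the derivative that carries the melanoma antigen gp100. The compound name in the treatment label ends in another digit for replicates 2 and 3 of GSK3326595, while the sample titles give a single name, and all 6 GSK3326595 libraries are described here under that name. The labels do not say whether the KO line was a single clone, how Mtap was edited, or whether replicates were separate cultures. Loss of Mtap and any other difference between the lines therefore cannot be told apart, and the p-values speak only of the variation among these libraries, which could be technical.

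PRMT5 places symmetric dimethyl marks on arginines of histones, Sm proteins of the spliceosome and many other proteins, using S-adenosylmethionine as methyl donor. MTAP clears methylthioadenosine (MTA), a by-product of polyamine synthesis. Cells without MTAP accumulate MTA, which occupies the methyl donor site of PRMT5 and partly inhibits it, so that such cells work with less PRMT5 activity before any drug is given. GSK3326595 (pemrametostat) does not need MTA to bind PRMT5, unlike MRTX1719, the other inhibitor of the series.

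Total counts ran from 19302768 to 27585208 per library, and the common biological coefficient of variation was 0.0198. Replicate 1 of KO cells with GSK3326595 stood apart from its group, with a chi-square per gene of 2.75 and 2.83 against its replicates, where other replicate pairs gave 1.40 to 1.97, and counts that move without it are given beside the result. The lines already differed at 10854 genes under DMSO (73.2% of those tested). Mtap RNA, the check of the genotype labels, stood at 236, 251 and 249.8 CPM in KO cells with GSK3326595, 264, 274 and 276 CPM in KO cells with DMSO, 417, 421 and 418 CPM in WT cells with GSK3326595, and 388, 393 and 397 CPM in WT cells with DMSO. Every KO library lay below every WT library, but the RNA was far from absent, and reads counted over the whole gene can come from transcripts that an edited allele still makes. Mtap fell by 0.14 on the log2 scale with GSK3326595 in KO cells and rose by 0.09 in WT cells (interaction -0.24 ± 0.031, adjusted p = 9.73e-11). Prmt5, the target of the drug, averaged 109.6 ± 3.07 CPM in KO cells with GSK3326595, 97.5 ± 1.01 CPM in KO cells with DMSO, 156 ± 3.35 CPM in WT cells with GSK3326595 and 145 ± 3.10 CPM in WT cells with DMSO (SD, n = 3 each). It rose by 0.17 in KO and 0.10 in WT cells, and the interaction of 0.07 ± 0.041 was not called (adjusted p = 0.153).

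The marker genes went only partly with the label of a colon adenocarcinoma. Of 11 epithelial markers 5 passed the filter on low counts. The defining marker Epcam had 1 count over the 3 KO libraries with GSK3326595 and 0 in the other 3 groups, while the keratin Krt8 and the galectin Lgals4 were present. The summed level of the 11 markers ranged, in KO cells, over 78.7 to 81.5 CPM with GSK3326595 and 32.0 to 33.0 CPM with DMSO, and in WT cells over 47.9 to 50.2 CPM with GSK3326595 and 28.2 to 30.1 CPM with DMSO. Most of the rise of this sum with the drug came from Krt8 alone. Krt8 averaged 60.06 CPM in KO cells with GSK3326595 and 14.42 CPM in KO cells with DMSO. In WT cells it averaged 38.15 CPM with GSK3326595 and 23.12 CPM with DMSO. Every marker other than Krt8 and Lgals4 averaged below 1 CPM in each group. The 10 leukocyte markers summed to 1.90 to 3.12 CPM in any of the 12 libraries, and the macrophage marker Adgre1 and the B cell marker Ms4a1 were at 0 in some groups. Other members were counted in every group, such as Ptprc with 51 to 73 counts per group. Lyz2 had 12 and 18 counts in KO cells with GSK3326595 and DMSO, and 108 and 79 in WT cells. The matrix and stromal genes among 8 fibroblast and endothelial markers were high, and their sums are given with the collagens.

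GSK3326595 moved a large share of genes in both lines, and across genes the responses of the lines were weakly correlated. In KO cells 7830 genes changed (52.8% of those tested), 4106 upward (27.7%) and 3724 downward (25.1%), and in WT cells 6102 changed (41.1%), 2977 upward (20.1%) and 3125 downward (21.1%). Across the 14835 genes the Pearson r of the log2 fold changes was 0.31, and it was 0.37 over the 10600 genes with a mean of at least 5 CPM in any group. These 2 responses share no library, and genes are not independent replicates. Of 3984 genes that changed in both lines, 2623 moved the same way and 1361 opposite ways.

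The interaction called 42.2% of genes, 3264 with a positive value (22.0%) and 3000 with a negative value (20.2%). Most differences were small. The median absolute interaction of called genes was 0.30 on the log2 scale, with quartiles of 0.20 and 0.47, against 0.22 over all genes tested. Only 388 genes (2.62%) differed at least 2-fold, 120 upward (0.809%) and 268 downward (1.81%), and just 65 of them reached a mean of 5 CPM in any group. The median interaction over all genes was -0.0068. The scaling itself centres changes near 0, so this value cannot show whether a common shift existed. The interaction is defined on the log2 scale, and 65 of the 6264 called genes, 9 of them among the 388, had the opposite sign as a difference of CPM changes.

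The called genes fell into 6 classes by what each line did alone. The most frequent was a change in KO cells alone, with 2493 genes (39.8% of those called), followed by opposite directions with 1361 (21.7%), a change in WT cells alone with 1245 (19.9%), the same direction but larger in KO cells with 707 (11.3%), the same direction but larger in WT cells with 250 (3.99%), and no call in either line with 208 (3.32%). Of the 1361 genes with opposite directions, 826 rose in KO and fell in WT cells, and 535 did the reverse. A call in one line alone is a statement about a threshold in that line, and it is the interaction test that shows the responses to differ.

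**Figure D1:**
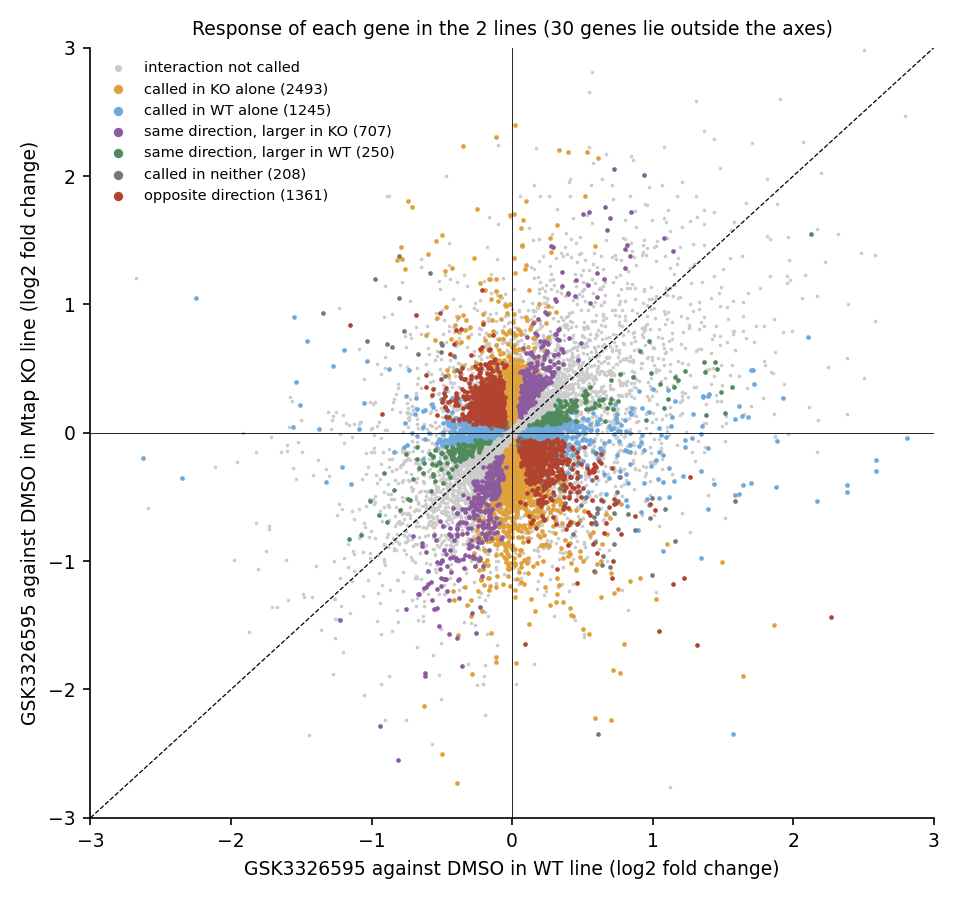
Log2 fold change with GSK3326595 against DMSO in KO cells (vertical axis) and in WT cells (horizontal axis), 1 point per gene, coloured by the class of the called interaction, with grey points not called and the dashed line marking equal responses. The 1361 genes with opposite directions fill the upper left and lower right, and 30 genes lie outside the axes.

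Genes of DNA replication and the G1/S transition showed a one-sided interaction. Of 47 such genes 36 had a positive interaction, against 22.0% of all genes, and 0 a negative one, against 20.2%. No member was negative at an unadjusted p below 0.05 either, and DESeq2 also gave 0. The median interaction of the list was 0.34, against -0.0068 over all genes. In KO cells 34 rose and 5 fell with the drug, against 27.7% and 25.1% of all genes (list median 0.22). In WT cells, by contrast, 29 fell and 2 rose, against 21.1% and 20.1% (list median -0.14). The count of 2 was 1 without replicate 2 or 3 of WT DMSO or of WT GSK3326595, under DESeq2 and without the filter on low counts. For 22 of the 47 genes the 2 lines moved in opposite directions, against 1361 of all 14835 genes tested. In bulk cultures, more cells in S phase and more RNA of these genes per cell cannot be told apart.

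Dnmt1, the maintenance DNA methyltransferase that copies methylation onto newly made DNA, had 280.4, 274 and 276 CPM in KO cells with GSK3326595, 206, 204 and 202 CPM in KO cells with DMSO, 239.8, 240.1 and 247 CPM in WT cells with GSK3326595, and 289.6, 282 and 285 CPM in WT cells with DMSO. The drug thus went with higher Dnmt1 in every KO library and lower Dnmt1 in every WT library, with no overlap within either line. Its change was 0.44 ± 0.023 in KO cells (log2 ± SE) and -0.24 ± 0.023 in WT cells, an interaction of 0.68 ± 0.032 (adjusted p = 9.07e-42). Uhrf1, which recruits DNMT1 to hemimethylated DNA, had 172, 174 and 166 CPM in KO cells with GSK3326595, 117, 121 and 112 CPM in KO cells with DMSO, 108, 109 and 108 CPM in WT cells with GSK3326595, and 116, 118 and 122 CPM in WT cells with DMSO. In KO cells it rose by 0.55 and in WT cells it fell by 0.14 (interaction 0.69 ± 0.041, adjusted p = 7.17e-33). The KO libraries with drug were the highest of the 4 groups for Uhrf1, and those of WT cells with drug the lowest.

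Rrm1 and the genes of the helicase had positive interactions, though not all of them fell in WT cells. Rrm1, the large subunit of ribonucleotide reductase, which makes deoxynucleotides, averaged 278 ± 9.25 CPM in KO cells with GSK3326595 and 224 ± 3.38 CPM in KO cells with DMSO and 179.7 ± 1.55 CPM in WT cells with GSK3326595 and 206 ± 3.30 CPM in WT cells with DMSO (SD, n = 3 each; interaction 0.51 ± 0.034). Mcm3, a subunit of the replicative helicase, averaged 216 ± 0.704 CPM in KO cells with GSK3326595 and 162 ± 2.15 CPM in KO cells with DMSO and 168 ± 1.18 CPM in WT cells with GSK3326595 and 177 ± 3.67 CPM in WT cells with DMSO (interaction 0.49 ± 0.036). All 6 subunits of that helicase, Mcm2 to Mcm7, rose in KO cells, by 0.15 (Mcm7) to 0.50 (Mcm4). In WT cells Mcm3 and Mcm7 fell, by 0.08 and 0.10 on the log2 scale, Mcm2 rose by 0.06, and Mcm4, Mcm5 and Mcm6 had values of -0.01, 0.01 and 0.02 that were not called. The interaction of all 6 was positive, between 0.25 (Mcm7) and 0.51 (Mcm4).

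E2f2 had the highest interaction of the list, followed by Cdc6, and both are named here, with E2f7, E2f1 and Tyms, after their values were seen. E2f2, a transcription factor of the E2F family, which drives genes of S phase entry, had 13.8, 14.8 and 14.8 CPM in KO cells with GSK3326595, 11.8, 11.5 and 10.8 CPM in KO cells with DMSO, 14.3, 15.0 and 14.4 CPM in WT cells with GSK3326595, and 22.7, 22.5 and 21.6 CPM in WT cells with DMSO. It rose by 0.36 in KO cells and fell by 0.61 in WT cells, an interaction of 0.97 ± 0.097 (adjusted p = 2.57e-16). Cdc6, which loads the helicase onto origins, rose by 0.42 in KO cells and fell by 0.33 in WT cells (interaction 0.75 ± 0.055). E2f7, an E2F family member that represses the same targets, had 0.29 in KO and -0.40 in WT cells (interaction 0.69 ± 0.061). Among the members not called, E2f1 (-0.19 in KO and -0.35 in WT cells) and Tyms, thymidylate synthase (-0.24 and -0.17), fell in both lines.

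**Figure D2:**
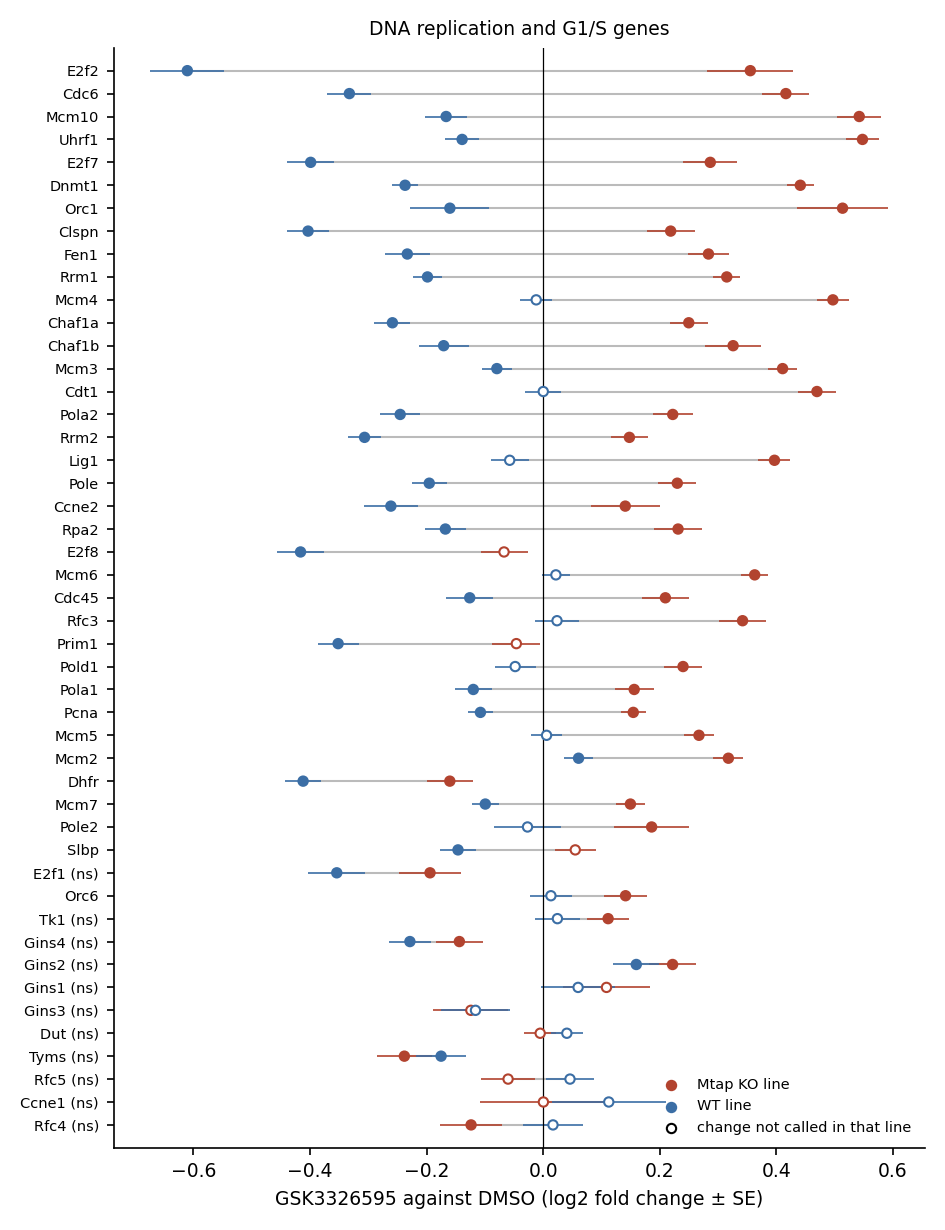
Log2 fold change with GSK3326595 against DMSO for each of 47 DNA replication and G1/S genes in KO cells (red) and WT cells (blue), with bars of 1 standard error, filled points called in that line and (ns) after genes whose interaction was not called. From E2f2 at the top, red points lie right of blue points for all 36 called genes.

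Promoters were read for the replication genes because many of them move together and are known targets of E2F factors. RefSeq promoters of the GRCm38.p6 assembly, from 250 bases before to 50 after each gene's start, were found for 40 of the 47 genes (48 promoters). The E2F motif TTTNNCGC, searched on both strands, was in 20 of the 48 (41.7%), belonging to 19 genes, against 1698 of 32851 promoters in all (5.17%). It was in 6 of 27 promoters of homologous recombination and Fanconi genes (22.2%) and in 2 of 39 of mitosis genes (5.13%). A match is a description of letters, and binding was not measured. The 4 promoters shown belong to the genes with the largest interactions among those holding the motif. Each runs 5′ to 3′ on the gene's strand, which is the plus strand for all 4, with the motif on either strand in capitals.
E2f2, chr4:136172024-136172323: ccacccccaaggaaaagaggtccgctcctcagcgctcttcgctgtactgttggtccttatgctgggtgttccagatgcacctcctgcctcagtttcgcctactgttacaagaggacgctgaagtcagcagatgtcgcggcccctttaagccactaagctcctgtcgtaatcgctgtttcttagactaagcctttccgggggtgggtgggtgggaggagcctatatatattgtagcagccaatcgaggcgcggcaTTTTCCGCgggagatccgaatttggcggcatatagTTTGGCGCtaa
Cdc6, chr11:98907901-98908200: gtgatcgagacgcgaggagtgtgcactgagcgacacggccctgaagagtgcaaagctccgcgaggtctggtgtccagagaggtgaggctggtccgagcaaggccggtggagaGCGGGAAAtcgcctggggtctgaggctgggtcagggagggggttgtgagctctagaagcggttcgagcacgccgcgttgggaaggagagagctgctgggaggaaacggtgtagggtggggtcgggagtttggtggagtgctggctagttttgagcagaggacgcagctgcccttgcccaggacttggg
Uhrf1, chr17:56303087-56303386: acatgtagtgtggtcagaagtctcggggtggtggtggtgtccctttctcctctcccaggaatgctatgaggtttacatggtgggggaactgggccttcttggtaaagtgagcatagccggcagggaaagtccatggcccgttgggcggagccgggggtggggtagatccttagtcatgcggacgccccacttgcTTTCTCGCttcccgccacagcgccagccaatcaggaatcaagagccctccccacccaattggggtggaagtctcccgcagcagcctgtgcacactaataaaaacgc
E2f7, chr10:110745189-110745488: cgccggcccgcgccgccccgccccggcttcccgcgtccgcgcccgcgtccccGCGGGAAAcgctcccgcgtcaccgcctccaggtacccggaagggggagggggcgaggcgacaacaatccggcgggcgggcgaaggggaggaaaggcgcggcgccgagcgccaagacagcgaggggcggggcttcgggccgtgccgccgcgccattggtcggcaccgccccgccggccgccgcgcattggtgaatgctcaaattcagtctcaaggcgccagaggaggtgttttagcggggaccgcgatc
E2f2 held the motif 2 times, both after the annotated start, and the others held it once, before the start.

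Mitosis genes rose in KO cells and were divided in WT cells. Of 44 genes 39 rose and 1 fell in KO cells, against 27.7% and 25.1% of all genes (list median 0.25). In WT cells 17 rose and 10 fell, against 20.1% and 21.1% (list median 0.03). The interaction was positive for 33 and negative for 3, against 22.0% and 20.2% of all genes, with a median of 0.25. Opposite directions were seen for 7 of the 44, against 1361 of all 14835 genes tested. The class of a change in KO cells alone held 16, against 2493 of all 14835. The kinesin Kif4, which compacts and separates chromosome arms, had 98.7, 98.7 and 102 CPM in KO cells with GSK3326595, 79.3, 75.2 and 75.6 CPM in KO cells with DMSO, 61.7, 62.2 and 61.6 CPM in WT cells with GSK3326595, and 66.6, 67.2 and 69.0 CPM in WT cells with DMSO (interaction 0.51 ± 0.047, adjusted p = 2.19e-18). The drug libraries were the higher ones in KO cells and the lower ones in WT cells. Anln, the anillin that scaffolds the cleavage furrow, averaged 415 ± 9.92 CPM in KO cells with GSK3326595 and 320.4 ± 2.32 CPM in KO cells with DMSO and rose by 0.37, while in WT cells its change of -0.04 was not called (interaction 0.42 ± 0.029). Kif20b, a kinesin of cytokinesis, had 0.44 ± 0.027 in KO cells and 0.02 ± 0.03, not called, in WT cells. Incenp, a scaffold of the Aurora B complex, rose by 0.18 in KO cells and fell by 0.27 in WT cells (interaction 0.45 ± 0.043). The 3 negative members were Pttg1 (-0.22), Cenpa (-0.22) and Ccnb2 (-0.19). Pttg1, securin, fell in KO cells, and the other two rose less in KO than in WT cells.

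Genes of homologous recombination and the Fanconi anaemia pathway, which repair double-strand breaks and crosslinks, more often had a positive interaction than a negative one. Of 34 genes 20 had a positive interaction, against 22.0% of all genes, and 2 a negative one, against 20.2% (median 0.22). In KO cells 14 rose and 5 fell, against 27.7% and 25.1% of all genes. In WT cells 2 rose and 15 fell, against 20.1% and 21.1%. Opposite directions were seen for 9 of the 34, against 1361 of all 14835 genes tested. The count of 2 negative genes was 1 without replicate 1 of KO GSK3326595 or replicate 2 of KO DMSO, and the count of 5 was 3 without replicate 2 or 3 of KO DMSO and under DESeq2. The count of 2 genes that rose in WT cells was 1 without replicate 3 of WT DMSO or replicate 2 of WT GSK3326595 and under DESeq2. Brca1, which directs repair to homologous recombination, had 71.4, 74.4 and 71.8 CPM in KO cells with GSK3326595, 60.0, 61.9 and 61.7 CPM in KO cells with DMSO, 61.8, 59.4 and 56.5 CPM in WT cells with GSK3326595, and 80.7, 81.1 and 78.9 CPM in WT cells with DMSO. Its RNA rose by 0.24 in KO cells and fell by 0.44 in WT cells, and the groups of neither line overlapped (interaction 0.68 ± 0.05, adjusted p = 3.08e-25). Exo1, the nuclease that resects broken ends, had an interaction of 0.82 ± 0.064, from 0.35 in KO and -0.47 in WT cells. Topbp1, an activator of the ATR checkpoint kinase, averaged 243 ± 6.91 CPM in KO cells with GSK3326595 and 178 ± 4.23 CPM in KO cells with DMSO and 218 ± 0.859 CPM in WT cells with GSK3326595 and 239.9 ± 2.58 CPM in WT cells with DMSO (interaction 0.59 ± 0.034). Bard1, the partner of BRCA1, rose by 0.65 in KO cells and had -0.09 in WT cells, which was not called (interaction 0.74 ± 0.08). Mus81, a nuclease for branched DNA, went the other way, with an interaction of -0.66 ± 0.12.

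Heat shock genes, not all of them cytosolic, mostly rose in KO cells and fell in WT cells. Of 13 tested chaperone genes, 11 had a positive interaction, against 22.0% of all genes, with a list median of 0.40. Only 1, Hspe1, had a negative one (-0.21), against 20.2%. In WT cells 9 fell and 2 rose, against 21.1% and 20.1% of all genes. In KO cells 8 rose and 0 fell, against 27.7% and 25.1%. The count of 0 was also 0 at an unadjusted p below 0.05 and by DESeq2, though 2 fell without replicate 1 of KO DMSO. Hspa8, the constitutive HSC70 chaperone, had 2518, 2563 and 2574 CPM in KO cells with GSK3326595, 2522, 2653 and 2622 CPM in KO cells with DMSO, 1893, 1904 and 1866 CPM in WT cells with GSK3326595, and 2518, 2552 and 2543 CPM in WT cells with DMSO. Only the WT libraries with drug stood apart, with a change of -0.43 ± 0.017 on the log2 scale, while the other 3 groups overlapped (interaction 0.40 ± 0.024, adjusted p = 1.19e-32). Cryab, a small heat shock protein, averaged 36.7 ± 1.94 CPM in KO cells with GSK3326595, 33.2 ± 0.458 CPM in KO cells with DMSO, 32.3 ± 1.68 CPM in WT cells with GSK3326595 and 61.3 ± 3.01 CPM in WT cells with DMSO (SD, n = 3 each). Its level in WT cells thus dropped to that of the KO line, with -0.92 ± 0.043 in WT and 0.15 ± 0.048 in KO cells (interaction 1.07 ± 0.065). Hsp90aa1, the inducible HSP90, rose by 0.32 in KO cells and fell by 0.11 in WT cells (interaction 0.43 ± 0.027). Dnajb1, a co-chaperone of HSP70, fell by 0.46 in WT cells and had 0.06, not called, in KO cells (interaction 0.52 ± 0.042). Hspa8 has many near-identical processed copies in the genome, and how the counting shared their reads is not given in the sources used here. RefSeq promoters were found for 9 of the 13 genes, and the heat shock element GAANNTTC, which reads the same on both strands, was in 8 of their 14 promoters (57.1%), against 2582 of 32851 in all (7.86%).

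Nuclear long noncoding RNAs and RNAs that host small nucleolar RNAs in their introns mostly fell in KO cells and rose in WT cells. Of 16 tested, 8 had a negative interaction, against 20.2% of all genes, and 1 a positive one, against 22.0% (list median -0.36). In KO cells 10 fell and 2 rose, against 25.1% and 27.7% of all genes. In WT cells 10 rose and 4 fell, against 20.1% and 21.1%. Opposite directions were seen for 7 of the 16, against 1361 of all 14835 genes tested. Snhg1 had 53.7, 55.6 and 53.7 CPM in KO cells with GSK3326595, 74.6, 79.4 and 77.9 CPM in KO cells with DMSO, 196, 202 and 199.7 CPM in WT cells with GSK3326595, and 167, 162 and 165 CPM in WT cells with DMSO. It was lowest in KO libraries with drug and highest in WT libraries with drug, with -0.51 ± 0.035 in KO and 0.27 ± 0.027 in WT cells (interaction -0.78 ± 0.044, adjusted p = 4.66e-35). Zfas1 had -0.34 ± 0.032 in KO and 0.25 ± 0.027 in WT cells (interaction -0.60 ± 0.041). Snhg5 had -0.35 ± 0.048 and 0.46 ± 0.041 (interaction -0.81 ± 0.063). Gas5, a host gene named for its build-up in growth-arrested cells, averaged 248 ± 4.50 CPM in KO cells with GSK3326595, 287 ± 4.32 CPM in KO cells with DMSO, 650.0 ± 15.6 CPM in WT cells with GSK3326595 and 595 ± 15.1 CPM in WT cells with DMSO (interaction -0.34 ± 0.03). The single positive member was Neat1, the scaffold of paraspeckles (0.49 ± 0.087), which fell in WT cells, while Malat1 fell in both lines (-0.33 in KO and -0.41 in WT cells) and its interaction was not called. These RNAs are matched by gene, so spliced and unspliced forms are counted together.

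Genes of ribosome biogenesis rose more often than they fell in both lines. Of 30, 11 rose and 4 fell in KO cells, against 27.7% and 25.1% of all genes, or 7 fell without replicate 1 of KO GSK3326595. In WT cells 18 rose and 2 fell, against 20.1% and 21.1%. The interaction was negative for 10, against 20.2% of all genes, and positive for 6, against 22.0% (median -0.06). Npm1, nucleophosmin, averaged 3456 ± 48.8 CPM in KO cells with GSK3326595 and 3606 ± 31.9 CPM in KO cells with DMSO and 3117 ± 31.8 CPM in WT cells with GSK3326595 and 2540.0 ± 2.85 CPM in WT cells with DMSO (interaction -0.36 ± 0.023). Npm1 also has many processed copies. Bop1, a factor of the large ribosomal subunit, had an interaction of -0.39 ± 0.056, and the helicase Ddx21 one of 0.28 ± 0.033. Of 28 nuclear oxidative phosphorylation genes 13 had a negative and 5 a positive interaction, against 20.2% and 22.0% of all genes (median -0.11). The count of 5 was 2 without any one of replicates 2 and 3 of WT GSK3326595 and replicate 1 of KO DMSO. It was 3 under DESeq2 and without any one of replicates 1 and 2 of KO GSK3326595, replicate 3 of KO DMSO and replicates 1 and 2 of WT DMSO. In WT cells 14 of the 28 rose and 2 fell, beside 20.1% and 21.1% of all genes. In KO cells 5 rose and 8 fell, beside 27.7% and 25.1%, and the count of 8 was 4 without replicate 2 of KO DMSO. Uqcrfs1, the Rieske protein of complex III, rose by 0.53 in WT and by 0.19 in KO cells (interaction -0.34 ± 0.047).

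**Figure D3:**
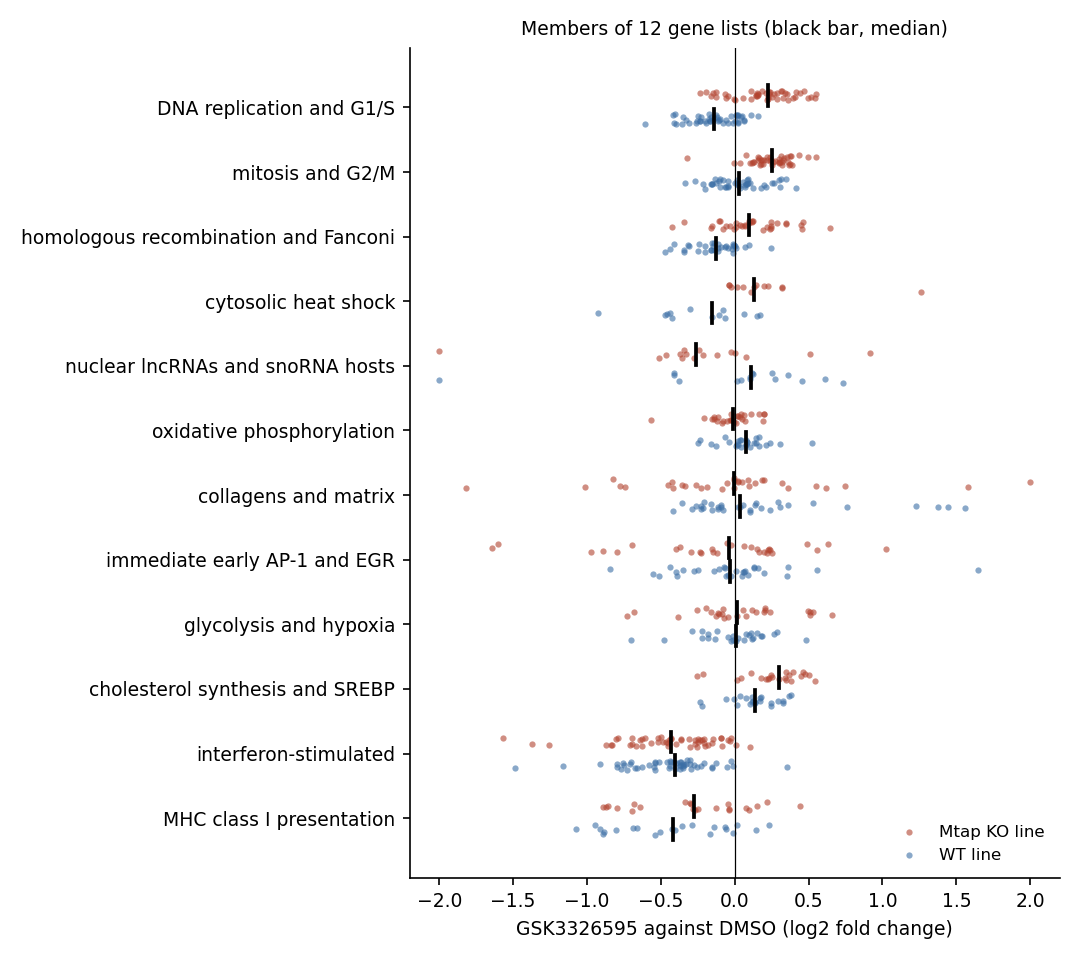
Log2 fold change with GSK3326595 against DMSO for the tested members of 12 gene lists in KO cells (red, upper row of each pair) and WT cells (blue, lower row), with a black bar at the median and values past 2 drawn at 2. For DNA replication the medians are 0.22 in KO and -0.14 in WT cells, and for interferon-stimulated genes they are -0.43 and -0.41.

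Cdkn1a, the p21 inhibitor of cyclin-dependent kinases, split sharply although p53 targets as a group did not. It had 18.9, 17.9 and 16.7 CPM in KO cells with GSK3326595, 10.4, 10.3 and 9.77 CPM in KO cells with DMSO, 40.3, 40.0 and 41.9 CPM in WT cells with GSK3326595, and 54.1, 52.3 and 51.0 CPM in WT cells with DMSO. The KO libraries with drug stood above those with DMSO, and the WT libraries with drug below those with DMSO. The change was 0.81 ± 0.069 in KO and -0.36 ± 0.043 in WT cells, an interaction of 1.17 ± 0.081 (adjusted p = 4.21e-27). Of 31 tested p53 targets 7 had a positive and 7 a negative interaction, close to the 22.0% and 20.2% of all genes, with a median of 0.02. Plk2, a kinase induced by p53, rose more in KO cells (0.45) than in WT cells (0.13; interaction 0.32 ± 0.028), and the nuclease Aen fell in KO cells and rose in WT cells (interaction -0.58 ± 0.081).

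The regulators of p53 differed between lines as well. PRMT5 inhibition is known to change splicing of Mdm4, which restrains p53, and counts per gene do not separate the isoforms. Mdm4 had 66.5, 76.1 and 73.2 CPM in KO cells with GSK3326595, 115, 115 and 112 CPM in KO cells with DMSO, 97.2, 93.9 and 95.2 CPM in WT cells with GSK3326595, and 107, 105 and 107 CPM in WT cells with DMSO. It fell in both lines, by 0.66 in KO and 0.15 in WT cells on the log2 scale, an interaction of -0.51 ± 0.046 (adjusted p = 1.75e-19). Mdm2, the ubiquitin ligase of p53, rose by 0.18 in KO cells and fell by 0.15 in WT cells (interaction 0.33 ± 0.049). Trp53 itself rose by 0.17 in KO cells, and its value of -0.02 in WT cells was not called (interaction 0.20 ± 0.036). The deubiquitinase Usp7 moved by 0.09 and -0.09 (interaction 0.19 ± 0.036).

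Among apoptosis genes, 4 of 17 BCL2 family members had a positive and 5 a negative interaction, against 22.0% and 20.2% of all genes. Bak1, an effector of mitochondrial permeabilisation, rose by 0.23 in KO cells and fell by 0.17 in WT cells (interaction 0.40 ± 0.049), and its relative Bok showed 0.64 ± 0.084. Bcl2l2, a survival factor, went the other way (-0.32 ± 0.07), as did the caspase inhibitor Birc2 (-0.30 ± 0.056). Of 7 tested NKG2D ligands and death receptor genes 4 were positive and 0 negative, beside the same shares of all genes. At an unadjusted p below 0.05 and by DESeq2, 0 were negative as well. Ulbp1, a ligand of the NK cell receptor NKG2D, averaged 38.9 ± 0.462 CPM in KO cells with GSK3326595, 43.6 ± 1.21 CPM in KO cells with DMSO, 36.3 ± 1.39 CPM in WT cells with GSK3326595 and 61.3 ± 1.85 CPM in WT cells with DMSO, so that its change was -0.76 ± 0.041 in WT and -0.17 ± 0.044 in KO cells (interaction 0.59 ± 0.06). Cflar, the inhibitor of death receptor signalling, and Casp8, the caspase it restrains, both rose in KO and fell in WT cells (interactions 0.42 ± 0.046 and 0.29 ± 0.052). Tnfrsf10b, a receptor for TRAIL, rose in both lines and more in KO cells (0.24 ± 0.06).

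**Figure D4:**
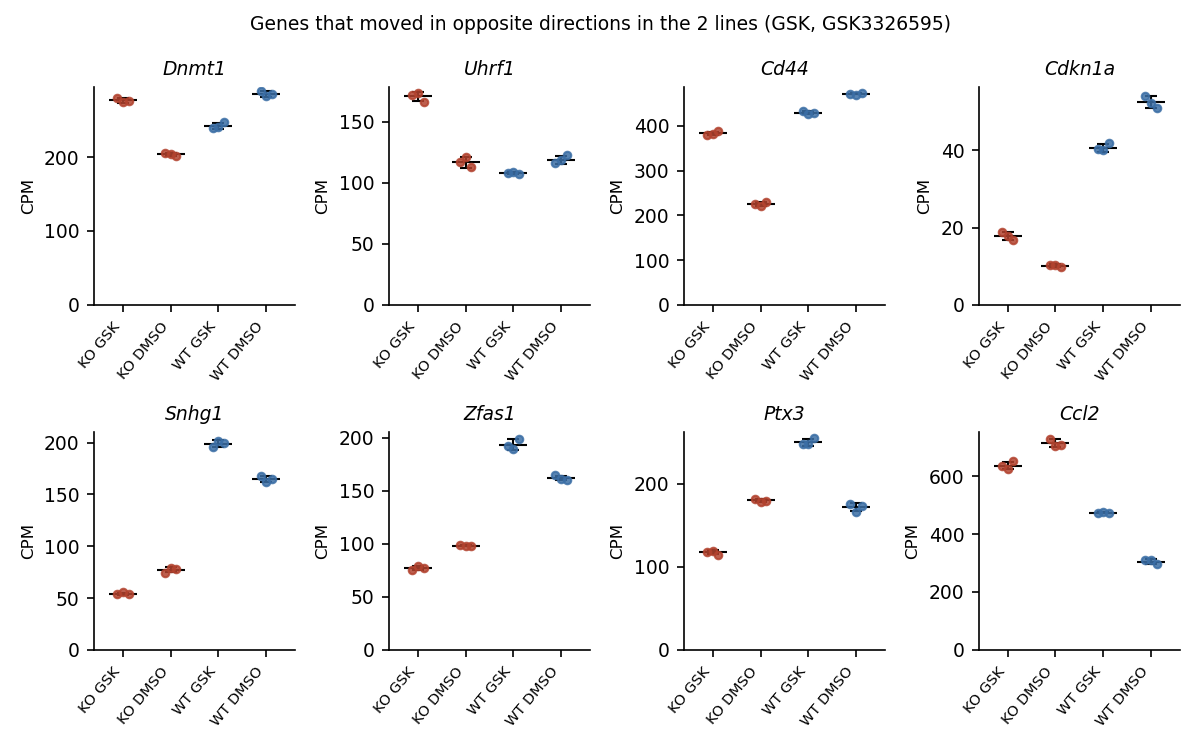
CPM per library (points) with the mean and SD (bars) of 3 libraries per group for 8 genes that moved in opposite directions in the 2 lines, in order KO with GSK3326595 (GSK), KO with DMSO, WT with GSK and WT with DMSO. Dnmt1, Uhrf1, Cd44 and Cdkn1a rose in KO and fell in WT cells, and Snhg1, Zfas1, Ptx3 and Ccl2 fell in KO and rose in WT cells.

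The matrix and secreted genes named first here fell in KO cells with the drug, and in WT cells they fell by less or rose. Islr, a secreted leucine-rich protein of mesenchymal cells, had 68.0, 58.8 and 61.2 CPM in KO cells with GSK3326595, 216, 224 and 219.6 CPM in KO cells with DMSO, 42.4, 41.7 and 44.2 CPM in WT cells with GSK3326595, and 54.1, 54.4 and 56.0 CPM in WT cells with DMSO. The KO libraries with drug came close to the level of WT cells with DMSO. Its change was -1.82 ± 0.032 in KO and -0.36 ± 0.04 in WT cells (interaction -1.46 ± 0.052, adjusted p = 3.34e-55). Col3a1, a fibrillar collagen chain, averaged 2847 ± 57.0 CPM in KO cells with GSK3326595, 5041 ± 196 CPM in KO cells with DMSO, 1359.5 ± 12.6 CPM in WT cells with GSK3326595 and 1436 ± 21.1 CPM in WT cells with DMSO (interaction -0.75 ± 0.025). Col6a1, a collagen VI chain, had an interaction of -0.67 ± 0.026, and Ogn, the proteoglycan osteoglycin, one of -0.99 ± 0.032. Gas1, a surface protein that arrests growth and binds Hedgehog ligands, had 160.4, 149 and 147 CPM in KO cells with GSK3326595 and 399.7, 376 and 393 CPM in KO cells with DMSO and 106, 106 and 108 CPM in WT cells with GSK3326595 and 120.3, 127 and 126 CPM in WT cells with DMSO (interaction -1.13 ± 0.04). Dcn, decorin, a proteoglycan that binds collagen, moved in opposite directions, with -0.36 ± 0.019 in KO and 0.36 ± 0.02 in WT cells (interaction -0.72 ± 0.027).

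The list of collagens and matrix genes as a whole was not one-sided. Of 33 tested members 12 rose and 14 fell in KO cells, against 27.7% and 25.1% of all genes. Col1a1 and Col12a1, collagen chains with higher levels in the KO line under DMSO, rose there by 0.10 and 0.14. In all 12 members had a negative and 8 a positive interaction, against 20.2% and 22.0% of all genes (median -0.04). Of the members, 10 moved the same way in both lines and more in KO cells, against 707 of all 14835 genes tested. The 8 fibroblast and endothelial markers summed, in KO cells, to 2972 to 3006 CPM with GSK3326595 and 3881 to 4017 CPM with DMSO, and in WT cells to 1855 to 1867 CPM with GSK3326595 and 1899 to 1928 CPM with DMSO. Of the 7 tested, 5 had a negative interaction and 0 a positive one, beside the same shares, also 0 at an unadjusted p below 0.05 and by DESeq2. Dcn and Col1a2 (-0.19) are on both lists, the endothelial gene Kdr was at 0 in all 4 groups, and the part of these markers in the matrix result was not tested. Among 23 matrix proteases, inhibitors and lysyl oxidases 5 were positive and 6 negative, close to the 22.0% and 20.2% of all genes. Timp2, an inhibitor of matrix metalloproteinases, had 813, 782 and 797 CPM in KO cells with GSK3326595 and 781, 784 and 819 CPM in KO cells with DMSO and 691, 693 and 690.1 CPM in WT cells with GSK3326595 and 946, 993 and 976 CPM in WT cells with DMSO. It fell by 0.49 in WT cells and had 0.00 in KO cells, not called (interaction 0.50 ± 0.027). Adamts10, a secreted protease of microfibrils, rose in WT cells (1.04 ± 0.048) and had 0.03 ± 0.037, not called, in KO cells.

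**Figure D5:**
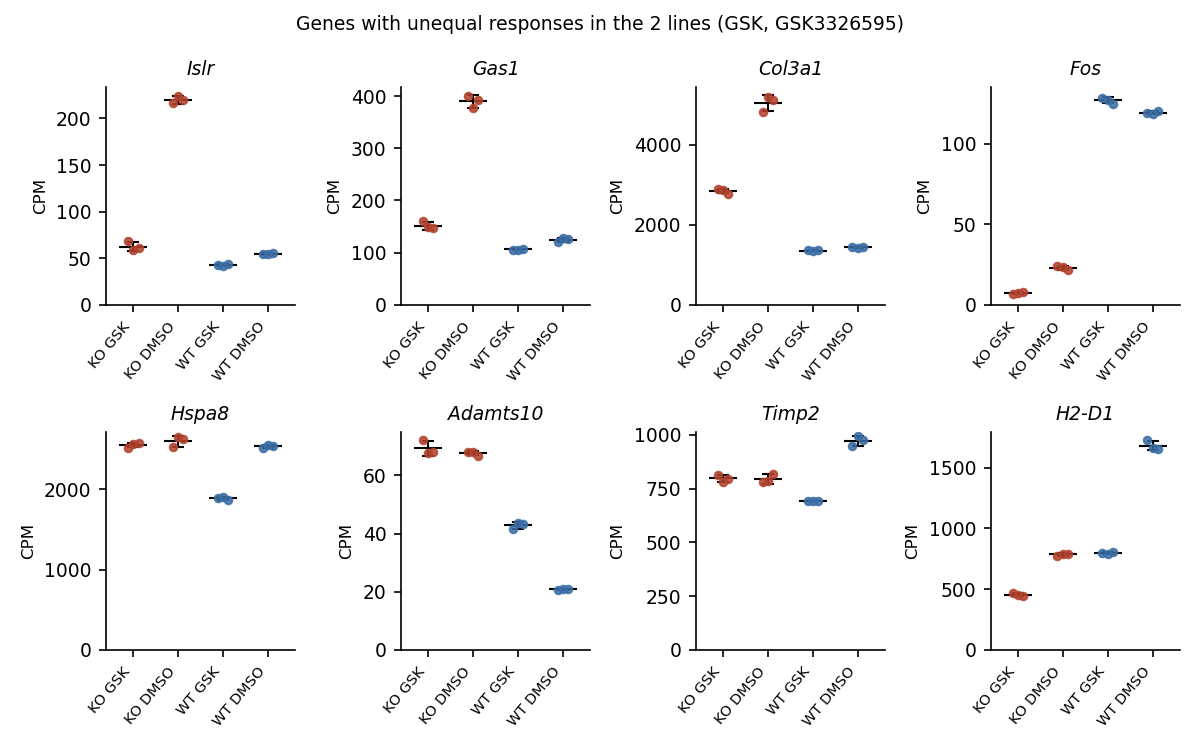
CPM per library (points) with the mean and SD (bars) of 3 libraries per group for 8 genes whose response differed between the lines. Groups are in order KO with GSK3326595 (GSK), KO with DMSO, WT with GSK and WT with DMSO. Islr, Gas1 and Col3a1 fell most in KO cells, and Fos fell in KO but not in WT cells. Hspa8, Adamts10 and Timp2 changed in WT cells alone, and H2-D1 fell in both lines.

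Immediate early genes of the AP-1 and EGR families, which respond to growth factors and stress within minutes, held some of the largest decreases in KO cells. Under DMSO 27 of the 30 genes on the list were lower in KO than in WT cells, against 37.0% of all genes tested. Fos had 7.05, 7.16 and 7.86 CPM in KO cells with GSK3326595, 23.9, 23.5 and 21.8 CPM in KO cells with DMSO, 129, 127 and 125 CPM in WT cells with GSK3326595, and 119, 119 and 120.1 CPM in WT cells with DMSO. The KO libraries with drug were the lowest of the 4 groups, and both WT groups lay far above the KO line. Fos fell by 1.64 on the log2 scale in KO cells and rose by 0.09 in WT cells (interaction -1.73 ± 0.074, adjusted p = 7.17e-47). Fosb fell by 1.60 in KO and 0.39 in WT cells (interaction -1.21 ± 0.068), and Egr1 by 0.97 and 0.44 (interaction -0.53 ± 0.03). Fosl1, an AP-1 member of invasive cells, rose by 0.56 in KO cells and was not called in WT cells (-0.06; interaction 0.61 ± 0.044). Over the 30 genes of the list 12 interactions were negative and 10 positive, against 20.2% and 22.0% of all genes, with a median of -0.04. These RNAs are short-lived and also react to handling, and the 12 libraries carry no label of harvest time.

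Signalling lists were mixed. Of 29 TGF-beta and BMP genes 10 had a positive and 9 a negative interaction, against 22.0% and 20.2% of all genes. The positive count was 6 without replicate 3 of KO DMSO. Inhba, an activin subunit, fell by 0.45 in KO cells and rose by 0.14 in WT cells (interaction -0.59 ± 0.035), and Ltbp1, which anchors latent TGF-beta in the matrix, rose more in KO cells (0.35 ± 0.033). Of 21 Wnt genes 4 were positive and 5 negative, beside the same shares of all genes. The positive count was 2 without replicate 1 of KO GSK3326595 or replicate 2 of KO DMSO and without the filter on low counts. Dkk2, a secreted Wnt regulator, averaged 157 ± 5.09 CPM in KO cells with GSK3326595 and 276 ± 4.48 CPM in KO cells with DMSO and 111 ± 2.87 CPM in WT cells with GSK3326595 and 117 ± 2.42 CPM in WT cells with DMSO (interaction -0.74 ± 0.039). The receptor Fzd2 had an interaction of -0.46 ± 0.045. Of 17 epithelial and mesenchymal transition genes 6 were positive and 1 negative, again beside 22.0% and 20.2%. The count of 1 was 2 without replicate 2 of WT DMSO or of WT GSK3326595, and 0 under DESeq2 and without replicate 3 of WT DMSO or of WT GSK3326595 or replicate 2 or 3 of KO GSK3326595. Krt80, a keratin, rose by 0.52 in KO cells and fell by 0.26 in WT cells (interaction 0.79 ± 0.053), and Vim, vimentin, rose in both lines and more in KO cells (0.15 ± 0.023).

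Genes of glycolysis and hypoxia had interactions of both signs. Of 27 tested, 10 were positive and 9 negative, against 22.0% and 20.2% of all genes (median 0.05). Opposite directions were seen for 8 of the 27, against 1361 of all 14835 genes tested. Slc2a1, the glucose transporter GLUT1, had 265, 249 and 246 CPM in KO cells with GSK3326595, 175, 175 and 177 CPM in KO cells with DMSO, 108, 109.8 and 115 CPM in WT cells with GSK3326595, and 122, 129.7 and 126 CPM in WT cells with DMSO. Drug libraries were higher in KO and lower in WT cells (interaction 0.71 ± 0.039, adjusted p = 3.48e-36). Hexokinase 2, Hk2, changed by 0.51 ± 0.032 in KO and -0.22 ± 0.032 in WT cells (interaction 0.73 ± 0.045), and Hk1 had an interaction of 0.48 ± 0.039. The lactate exporter Slc16a3 rose by 0.50 in KO cells and was not called in WT cells (0.02). The glycolytic enzymes Aldoa, Gapdh and Pgk1 fell in KO and rose in WT cells by small amounts, with interactions of -0.29, -0.26 and -0.17.

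Cholesterol synthesis genes mostly rose in both lines and had a positive interaction more often than a negative one. Of 23 tested, 9 interactions were positive and 1 negative, against 22.0% and 20.2% of all genes (median 0.11). In KO cells 18 rose and in WT cells 13, against 27.7% and 20.1% of all genes, and 2 fell in each. The count of 1 was 0 without replicate 1 of WT GSK3326595, and that of 2 in KO cells was 1 without replicate 3 of KO GSK3326595. Acat2, which condenses acetyl-CoA units, rose in KO and fell in WT cells (0.70 ± 0.074), and Hmgcs1 and Idi1 had interactions of 0.26 ± 0.044 and 0.38 ± 0.069.

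Genes of the PRMT5 complex and the snRNP core were called about as often as genes in general. Of 21, 4 had a positive interaction, against 22.0% of all genes, and 5 a negative one, against 20.2%, or 3 without replicate 2 of KO GSK3326595 and under DESeq2. Riok1, an adaptor that brings substrates to PRMT5, fell by 0.18 in KO cells and rose by 0.12 in WT cells (interaction -0.30 ± 0.054). Clns1a, the pICln adaptor for Sm proteins, went the other way (0.17 ± 0.045), and Lsm11 and Lsm4, of the Sm-like family, were positive (0.32 ± 0.075 and 0.21 ± 0.045). Among 8 tested arginine methyltransferases 4 were negative and 1 positive, against 20.2% and 22.0% of all genes. The count of 1 was 0 without replicate 1 of KO DMSO. Prmt6 rose in WT cells (0.29) and fell in KO cells by 0.13 (interaction -0.42 ± 0.081), and Prmt7 rose in WT cells alone (0.21; interaction -0.21 ± 0.045). Of 28 SR protein, hnRNP and CLK kinase genes 11 were negative and 7 positive, against 20.2% and 22.0% of all genes. The count of 7 was 4 without replicate 1 of WT DMSO and without the filter on low counts. Srsf7, a splicing factor, averaged 234 ± 2.88 CPM in KO cells with GSK3326595 and 254 ± 8.33 CPM in KO cells with DMSO and 263 ± 3.50 CPM in WT cells with GSK3326595 and 214 ± 3.03 CPM in WT cells with DMSO (interaction -0.42 ± 0.034). Hnrnpc, Srsf3 and Srsf5 had interactions of -0.33, -0.29 and -0.25.

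In methionine metabolism, where MTAP acts, 5 of 16 tested genes had a negative interaction, against 20.2% of all genes. The edited gene Mtap is itself 1 of these 5. A positive interaction was called for 0, against 22.0% of all genes, with 0 also at an unadjusted p below 0.05 and by DESeq2. Mat2a, which makes S-adenosylmethionine, had 222, 226 and 226 CPM in KO cells with GSK3326595, 319.7, 321 and 319.6 CPM in KO cells with DMSO, 223, 226 and 219 CPM in WT cells with GSK3326595, and 241, 243 and 245 CPM in WT cells with DMSO. It was highest in KO cells with DMSO, and in KO cells with drug it came to the level of WT cells with drug. The change was -0.51 ± 0.023 in KO and -0.12 ± 0.023 in WT cells (interaction -0.39 ± 0.033, adjusted p = 5.17e-21). Mri1, the enzyme after MTAP in the salvage of methionine, fell by 0.17 in KO cells and rose by 0.25 in WT cells (interaction -0.42 ± 0.061). Ahcy, which removes S-adenosylhomocysteine, rose in WT cells alone (interaction -0.19 ± 0.04). Of 16 polyamine genes 3 were positive and 4 negative, beside the same shares of all genes. Sat1, which acetylates polyamines for export, rose by 0.56 in KO cells and was not called in WT cells (interaction 0.51 ± 0.043). Odc1, the first enzyme of polyamine synthesis, averaged 377 ± 1.87 CPM in KO cells with GSK3326595 and 398 ± 7.58 CPM in KO cells with DMSO and 997 ± 6.48 CPM in WT cells with GSK3326595 and 891 ± 5.97 CPM in WT cells with DMSO (interaction -0.24 ± 0.027), and Sms, spermine synthase, rose in WT cells alone (-0.37 ± 0.046).

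Stress response lists had interactions of both signs. Of 31 ATF4 targets and tRNA synthetases 12 were negative and 9 positive, against 20.2% and 22.0% of all genes. Trib3, a pseudokinase induced by ATF4, fell by 0.23 in KO cells and rose by 0.32 in WT cells (interaction -0.55 ± 0.038), and Atf4 rose in WT cells alone (-0.23 ± 0.027). Of 20 unfolded protein response genes and ER chaperones 9 were positive and 5 negative, beside the same shares of all genes. Edem1, which directs misfolded glycoproteins to degradation, rose in KO cells alone (0.41 ± 0.038), and Xbp1, a transcription factor of that response, fell in KO cells alone (-0.35 ± 0.035).

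Interferon-stimulated genes fell in both lines. Of 53 tested, 46 fell and 1 rose in KO cells, against 25.1% and 27.7% of all genes (list median -0.43). In WT cells 47 fell and 1 rose, against 21.1% and 20.1% (list median -0.41). The interaction was positive for 17, against 22.0% of all genes, and negative for 10, close to the 20.2% of all genes (median 0.06). Of the called genes 8 moved the same way in both lines and more in KO cells, against 707 of all 14835 genes tested. A further 14 moved the same way and more in WT cells, against 250 of all 14835. Oas3, an oligoadenylate synthetase of the antiviral response, had 72.0, 74.6 and 73.2 CPM in KO cells with GSK3326595, 90.0, 86.7 and 83.1 CPM in KO cells with DMSO, 109.9, 111 and 112 CPM in WT cells with GSK3326595, and 171, 168 and 175 CPM in WT cells with DMSO. Both lines fell, WT cells by more (-0.63 ± 0.029 against -0.24 ± 0.034 in KO cells; interaction 0.39 ± 0.044). Eif2ak2, the kinase PKR, and Trim25, a ubiquitin ligase of RNA sensing, had interactions of 0.30 ± 0.046 and 0.29 ± 0.034. Ifi203 fell more in KO cells (-0.42 ± 0.05), and Uba7, the activating enzyme for ISG15, fell by 0.30 in KO cells and rose by 0.35 in WT cells (interaction -0.66 ± 0.063). Of 19 genes of cytosolic nucleic acid sensing 6 were positive and 6 negative, beside the same shares of all genes. Cgas, the DNA sensor, had 0.33 ± 0.069.

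Genes of MHC class I presentation fell in both lines, in WT cells by more. Of 22, 14 fell and 4 rose in KO cells, against 25.1% and 27.7% of all genes. In WT cells 17 fell and 2 rose, against 21.1% and 20.1%. The interaction was positive for 11 and negative for 4, against 22.0% and 20.2% (median 0.17). H2-D1, a classical class I heavy chain, had 467, 449 and 445 CPM in KO cells with GSK3326595, 772, 792 and 793 CPM in KO cells with DMSO, 795, 791 and 803 CPM in WT cells with GSK3326595, and 1725, 1658 and 1657 CPM in WT cells with DMSO. All 4 groups were separate except that KO cells with DMSO and WT cells with drug overlapped. The change was -0.79 ± 0.02 in KO and -1.08 ± 0.019 in WT cells (interaction 0.28 ± 0.028, adjusted p = 1.9e-16). H2-Q4, a related chain, had 0.30 ± 0.036, and these chains are similar enough that reads may be shared. Tap1, which pumps peptides into the ER, fell by 0.27 in KO and 0.66 in WT cells (interaction 0.39 ± 0.045). Tapbp, tapasin, fell in WT cells alone (0.38 ± 0.032).

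Chemokines and checkpoint ligands differed gene by gene. Of 23 chemokine and cytokine genes 6 were negative and 3 positive, against 20.2% and 22.0% of all genes. Ccl2, which attracts monocytes, had 635, 624 and 650.4 CPM in KO cells with GSK3326595, 729, 703 and 708 CPM in KO cells with DMSO, 473, 476 and 471 CPM in WT cells with GSK3326595, and 309, 309 and 296 CPM in WT cells with DMSO. It fell by 0.16 in KO cells and rose by 0.64 in WT cells, with no overlap in either line (interaction -0.80 ± 0.029, adjusted p = 1.77e-54). Ccl7, a neighbour and close relative, showed the same signs (-0.86 ± 0.076), Cxcl1 rose in WT cells alone (-0.54 ± 0.099), and Csf1, the macrophage growth factor, fell more in KO cells (-0.34 ± 0.03). Of 12 checkpoint ligand genes 4 were positive and 3 negative, beside the same shares of all genes. Pvr, the CD155 ligand of TIGIT and CD226, had 173, 179 and 173 CPM in KO cells with GSK3326595, 109, 112 and 113 CPM in KO cells with DMSO, 149, 149 and 148 CPM in WT cells with GSK3326595, and 162, 169 and 166 CPM in WT cells with DMSO. It rose in KO and fell in WT cells (interaction 0.81 ± 0.038). Tigit RNA itself was low and averaged 10.5 ± 0.842 CPM in KO cells with GSK3326595, 2.60 ± 0.488 CPM in KO cells with DMSO, 18.8 ± 0.700 CPM in WT cells with GSK3326595 and 9.80 ± 0.538 CPM in WT cells with DMSO, rising in both lines and more in KO cells (1.07 ± 0.14). Cd276, B7-H3, fell in WT cells alone (0.20 ± 0.053), and Vsir, VISTA, fell in KO cells alone (-0.71 ± 0.1). Of 2 tested melanosome genes Mitf had 0.63 ± 0.19 and Pmel -0.81 ± 0.3, both at under 7 CPM, and the call of Pmel was lost under DESeq2 and without replicate 2 of KO GSK3326595, of KO DMSO or of WT DMSO.

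Beyond the lists, the largest interactions among genes with at least 5 CPM in a group were named by size. The highest was Epb41l3, a membrane skeleton protein, with 1.60, 1.51 and 1.91 CPM in KO cells with GSK3326595, 0.667, 0.485 and 0.414 CPM in KO cells with DMSO, 55.2, 53.4 and 53.5 CPM in WT cells with GSK3326595, and 53.5, 54.1 and 56.1 CPM in WT cells with DMSO. It rose in KO cells from a level near the floor, while both WT groups lay above 53 CPM and overlapped (interaction 1.71 ± 0.25, adjusted p = 4.75e-09). Prune2 averaged 30.3 ± 1.20 CPM in KO cells with GSK3326595 and 11.0 ± 0.314 CPM in KO cells with DMSO and 55.4 ± 0.832 CPM in WT cells with GSK3326595 and 52.7 ± 2.06 CPM in WT cells with DMSO, and Pdgfc, a growth factor of mesenchymal cells, averaged 8.77 ± 0.404 CPM in KO cells with GSK3326595 and 3.68 ± 0.380 CPM in KO cells with DMSO and 7.76 ± 0.258 CPM in WT cells with GSK3326595 and 7.65 ± 0.592 CPM in WT cells with DMSO, so that by the means KO cells with drug stayed below WT cells for Prune2 and lay above them for Pdgfc (interactions 1.39 ± 0.073 and 1.23 ± 0.15). Krt8, a simple epithelial keratin, had 61.2, 58.3 and 60.8 CPM in KO cells with GSK3326595, 14.2, 14.0 and 15.1 CPM in KO cells with DMSO, 37.6, 37.5 and 39.4 CPM in WT cells with GSK3326595, and 23.2, 21.7 and 24.4 CPM in WT cells with DMSO. It rose in both lines, by 2.06 in KO and 0.73 in WT cells (interaction 1.33 ± 0.074), and it is 1 of the 11 epithelial markers summed above. Pla2g4c, a phospholipase, Nipal1, Rasgef1a and the lipid phosphatase Inpp4b had interactions of 1.45 ± 0.19, 1.39 ± 0.19, 1.38 ± 0.27 and 1.33 ± 0.25.

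At the low end stood Aldh1a1, a retinaldehyde dehydrogenase, with 2.17, 2.72 and 2.60 CPM in KO cells with GSK3326595, 5.08, 6.72 and 4.93 CPM in KO cells with DMSO, 0.731, 0.385 and 0.369 CPM in WT cells with GSK3326595, and 0.253, 0.303 and 0.261 CPM in WT cells with DMSO. The WT values are near the floor of detection, so its interaction of -2.00 ± 0.44 rests on few counts, and the same holds for Brinp3 (-1.61 ± 0.54, adjusted p = 0.0108). Inmt, an N-methyltransferase, fell in both lines and more in KO cells (-1.74 ± 0.26). Edn1, the vasoconstrictor endothelin 1, fell by 0.79 in KO cells and rose by 0.78 in WT cells (interaction -1.56 ± 0.21). Fabp4, a fatty acid carrier, rose by 1.64 in WT cells alone (interaction -1.51 ± 0.22), and the unannotated 9630013A20Rik had -1.64 ± 0.18. H2bc4, a histone H2B gene, had 43.8, 43.8 and 46.2 CPM in KO cells with GSK3326595, 65.5, 66.5 and 70.6 CPM in KO cells with DMSO, 39.1, 39.9 and 40.5 CPM in WT cells with GSK3326595, and 19.7, 20.3 and 19.0 CPM in WT cells with DMSO. In KO cells it fell by 0.60 and in WT cells it rose by 1.02 (interaction -1.62 ± 0.065). H1f2, a linker histone gene, fell in KO cells alone (-1.22 ± 0.034; interaction -1.24 ± 0.052). Most RNAs of such histones lack a poly(A) tail, so poly(A) libraries catch an unknown share of them, and related copies may share reads.

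Genes with the smallest p in each class include several surface and cytoskeletal proteins. Cd44, the hyaluronan receptor, had 379.6, 382 and 388 CPM in KO cells with GSK3326595, 226, 222 and 229.8 CPM in KO cells with DMSO, 434, 427 and 429 CPM in WT cells with GSK3326595, and 472, 470.0 and 473 CPM in WT cells with DMSO. It rose by 0.76 in KO cells and fell by 0.13 in WT cells (interaction 0.90 ± 0.03, adjusted p = 2.65e-58). Ptx3, a secreted pentraxin of innate immunity, fell by 0.62 in KO cells and rose by 0.54 in WT cells (-1.16 ± 0.038). Actg1, cytoplasmic actin, rose in KO cells alone (0.49 ± 0.025), and C1ra, a complement protease, and Tmem176b fell in KO cells alone (-0.83 ± 0.042 and -0.74 ± 0.038). Zfp57, a zinc finger protein that protects imprinted methylation, rose by 0.70 in WT cells alone, up to the level of the KO line (interaction -0.68 ± 0.039). Angptl7, a secreted protein, and Selenoo, a mitochondrial selenoprotein, rose in both lines and more in WT cells (-0.85 ± 0.033 and -1.17 ± 0.066), as did the BMP antagonist Grem1 (-0.38 ± 0.032) and the complement protease Masp1 (-0.36 ± 0.031). Of the genes called in neither line, Pcyox1, Nrip1, Wwp1 and Cenph had interactions of -0.13, -0.19, 0.17 and 0.31, the last 3 of which were lost in at least 1 alternative.

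The genotype dependence of GSK3326595 was also set against that of MRTX1719, given at the same 0.5 uM for the same 5 days to 3 KO and 2 WT libraries. The interaction with MRTX1719 called 8627 genes (58.2%), 1469 of them at least 2-fold (9.9%). The difference of the 2 interactions, in which the DMSO libraries cancel, was called for 6870 genes (46.3%), 3277 positive (22.1%) and 3593 negative (24.2%), so for these genes the difference between KO and WT cells depended on which inhibitor was used. It was positive for 40 and negative for 1 of 53 interferon-stimulated genes (median 0.36), and positive for 16 and negative for 4 of 22 MHC class I genes. Mitosis genes went the other way, with 6 positive and 29 negative of 44, and so did ATF4 targets, with 2 and 25 of 31, and unfolded protein response genes, with 2 and 17 of 20. Replication genes were divided, with 16 positive and 18 negative of 47.

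Single genes show the size of these differences. Bmp6, a bone morphogenetic protein, averaged 3.99 ± 0.627 CPM in KO cells with GSK3326595, 0.887 ± 0.101 CPM in WT cells with GSK3326595, 18.1 ± 1.53 CPM in KO cells with MRTX1719 and 0.454 ± 0.0541 CPM in WT cells with MRTX1719 (SD; n = 3, but 2 for WT cells with MRTX1719), a difference of interactions of -3.14 ± 0.34 (adjusted p = 1.03e-14). Itgb4, an integrin chain of hemidesmosomes, averaged 3.45 ± 0.314 CPM in KO cells with GSK3326595, 0.808 ± 0.240 CPM in WT cells with GSK3326595, 6.20 ± 1.27 CPM in KO cells with MRTX1719 and 0.208 ± 0.134 CPM in WT cells with MRTX1719 (-2.80 ± 0.45). Both were higher in KO cells with MRTX1719 than in any other group. Islr averaged 62.7 ± 4.81 CPM in KO cells with GSK3326595, 42.8 ± 1.26 CPM in WT cells with GSK3326595, 17.9 ± 0.740 CPM in KO cells with MRTX1719 and 47.2 ± 0.122 CPM in WT cells with MRTX1719, a difference of 1.94 ± 0.066 in the other direction. Itgb3bp, a centromere protein, had 2.02 ± 0.34, and Med12l -2.57 ± 0.3. The 2 unannotated or antisense loci, Gm29630 (2.24 ± 0.29) and Rab26os (-2.96 ± 0.53), may share reads with neighbours, since the strand setting of the counting is not given. Mtap itself had an interaction of -0.24 ± 0.031 with GSK3326595 and -0.43 ± 0.033 with MRTX1719.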

How the data were processed

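RNA of MC38/gp100 cells was measured by directional poly(A) RNA sequencing. The authors deposited raw counts per gene, whole numbers with no normalization, and a table of normalized signal, which was tested to equal the counts divided by 1 size factor per library. Reads were processed with TopHat2 2.0.10, Bowtie2 2.1.0 and DESeq 1.18.0 on the GRCm39 (mm39) build, per the submitters' processing notes. Which program counted reads, with which annotation and strand setting, is not given in the sources used here. Symbols came from the deposited normalized table, all 15629 entries of which matched 1 identifier by value, and otherwise from the supplied table of gene names.

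From the deposited counts, edgeR 4.0.16 in R 4.3.3 fitted all 17 MC38 libraries at once (quasi-likelihood F test with robust dispersions and no covariates, after TMM scaling and a filterByExpr filter by group), leaving 14835 genes. Contrasts were the GSK3326595 by genotype interaction, GSK3326595 against DMSO in each line, KO against WT under DMSO, and the GSK3326595 minus the MRTX1719 interaction. Adjusted p-values are Benjamini-Hochberg over all genes tested. The number after ± is a standard error beside a log2 value and an SD beside a level. Levels are CPM on TMM-scaled library sizes. Total counts of 19302768 to 27585208 per library set the precision. On simulated counts for this interaction, 84% of 50 genes changed 1.25-fold and 94% of 50 changed 1.5-fold were called, as were 0.0615% of 14635 unchanged genes. The changed genes were drawn from those with a mean of at least 5 CPM, and all genes were given the same spread. These rates therefore do not speak for changes in genes at lower counts or for genes with more spread.

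Members, gene lists, tests and alternatives were chosen with earlier results of these data known. Named genes are those with an interaction among the 8 highest or 8 lowest (at least 5 CPM in a group), the 4 smallest p in each class, up to 4 called members per list by p, Mtap, Prmt5 and the 4 highest and lowest differences between inhibitors, and others are said to be chosen after their values were seen or are list members given for context. Alternatives were DESeq2 1.42.0, DESeq2-type size factors, no low-count filter, a replicate block, the 12 libraries alone and each library left out. Mitochondrially encoded genes and T cells were not analysed here, and a few genes that the rule names are not reported here.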

Additional observations from a re-analysis of the deposited data

Results flagged for a closer look

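The results given again here stand out because the response to GSK3326595 differed between the KO and WT lines by the interaction test itself (edgeR quasi-likelihood test), or because that interaction differed from that with MRTX1719. The interaction called 6264 genes, 388 of them at least 2-fold, and 1361 moved in opposite directions in KO and WT cells. The difference between the GSK3326595 and MRTX1719 interactions was called for 6870 genes.

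Among genes with at least 5 CPM in a group, the highest interactions on the log2 scale were those of Epb41l3 (1.71), Pla2g4c (1.45), Nipal1 (1.39), Prune2 (1.39), Rasgef1a (1.38), Krt8 (1.33), Inpp4b (1.33) and Pdgfc (1.23). The lowest were those of Aldh1a1 (-2.00), Inmt (-1.74), Fos (-1.73), 9630013A20Rik (-1.64), H2bc4 (-1.62), Brinp3 (-1.61), Edn1 (-1.56) and Fabp4 (-1.51). Krt8, H2bc4 and Fos were above 5 CPM in all 4 groups, whereas Aldh1a1 and Brinp3 were below 1 CPM in WT cells.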

How the results depend on the processing

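With TMM or DESeq2-type size factors, without the low-count filter, under DESeq2 and in the fit of the 12 libraries alone, the interaction called 5408 (DESeq2) to 6265 genes, and no gene called in the main analysis changed sign in any of them. DESeq2 called 5404 of the same 6264 genes. Its count of genes at least 2-fold apart was 248 in place of 388, and the cause was not tested. Replicate numbers did not pair the samples, since 18 same-number correlations ran from -0.116 to 0.0457. With the replicate block the interaction called 6194 genes, 380 of them at least 2-fold, and 1328 moved in opposite directions. The block gave 7779 genes in KO and 6023 in WT cells. Leaving out 1 library in turn gave 5795 to 6262 interaction genes, 351 to 390 at least 2-fold, 1198 to 1359 with opposite directions, 7179 to 7844 in KO cells, 5404 to 6264 in WT cells, 10351 to 10932 between the lines under DMSO and 6033 to 6900 between the inhibitors' interactions. For the named genes 3700 of 3710 recomputed values kept their direction and their side of the threshold. The 10 others kept their direction only and belong to Pmel (4), Wwp1 (2), Brinp3, Cenph, Nrip1 and Prmt2 (1 each). Without replicate 1 of KO GSK3326595, an alternative chosen after seeing the data, positive calls fell to 2 of the 4 in the Wnt list and 3 of the 5 in oxidative phosphorylation, and negative calls to 1 of the 2 in homologous recombination. Genes below about 1 CPM in a line, such as Aldh1a1 and Brinp3 in WT cells, are limited by depth.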
